A study of Mus musculus with 6 samples.

Results

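The Wnt ligands, their receptors, their secreted antagonists and agonists, and the core proteins that relay the signal to the nucleus were followed in differentiated mouse inguinal fat cells. A gene was taken as a member by its symbol in the platform annotation: Wnt or Fzd followed by a digit, Sfrp, Dkk or Rspo at the start, or 1 of a short list of co-receptors and intracellular proteins. This gave 61 genes of 18193 named on the array, measured by 124 of 45101 probe sets. They were 19 Wnt ligands, the ligand-processing enzyme Porcn, 4 R-spondins, 14 receptors and co-receptors, 10 genes of antagonist families, 9 cytoplasmic proteins, 3 nuclear factors and 1 antisense RNA, Fzd10os, which the symbol rule takes in and which is counted by itself. Tcf7 was not analysed here. Each gene is represented by its brightest probe set that carries 1 gene symbol.

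Secreted Wnt proteins bind frizzled receptors together with the co-receptors Lrp5 and Lrp6, which stabilises β-catenin (Ctnnb1) so that it can activate genes through TCF/LEF factors. Other Wnt proteins act without β-catenin through receptors such as Ror1 and Ror2. Secreted frizzled-related proteins bind Wnts, dickkopf proteins block Lrp5 and Lrp6, and R-spondins prolong the life of frizzled receptors on the cell surface. In fat, β-catenin signalling is known to hold back the differentiation of precursor cells, and Wnt10b is the ligand best known for it.

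Rosiglitazone is a thiazolidinedione drug that activates PPARγ, the nuclear receptor that drives fat cell differentiation. Total RNA was measured on 3 Affymetrix mouse arrays of cells given rosiglitazone (1 uM for 4 d) and on 3 arrays of Control cells without it. The labels call the treated cells beiging and the others non-activated. They give no strain, age or passage, and do not say whether the replicates were grown apart, so the spread behind each p-value may be a technical one.

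The deposited values are probe set intensities on a linear scale with array medians of 44.65 to 46.81, and the number of arrays, 3 a group, limits their precision. Over all 45101 probe sets, with dim ones and controls included, log2 values correlated at 0.994 to 0.996 within a group and at 0.984 to 0.985 between groups. The fat cell hormone Adipoq had intensities of 13396, 12919.6 and 13158 on the Rosiglitazone arrays, against 12998, 12746 and 12741 on the Control arrays (log2 change 0.04, adjusted p = 0.162). Ucp1, the uncoupling protein of heat-producing fat, was at least 93.4-fold higher with rosiglitazone. Lep, the white fat hormone leptin, fell by 5.02 on the log2 scale (adjusted p = 2.7e-14), and Pparg, the drug's receptor, by 0.36 (adjusted p = 7.5e-09). A change is the log2 difference of Rosiglitazone minus Control after values under an intensity of 16 (the floor) were set to 16. A gene is called when limma's p, adjusted by Benjamini-Hochberg over 12952 genes tested, is under 0.05.

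The secreted frizzled-related antagonists Sfrp1 and Sfrp2 fell more than 4-fold and several receptors fell, while 4 Wnt ligands rose. Of the 61 members 44 were bright enough to be tested and 22 of them (50.0%) were called, 6 higher and 16 lower. Among all genes tested 59.4% were called, 23.6% higher and 35.8% lower, so neither the share of members called nor their share lower (36.4%) set them apart from other genes. Their share higher was 13.6%. The median change of the tested members was −0.07, and that of all genes tested −0.05. Falls of more than 2-fold were called in 5 members (11.4%) and in 4.62% of all genes tested, and rises of more than 2-fold in 1 member (2.27%) and in 1.51% of all genes tested. Past 1.5-fold, 11 members (25.0%) fell, against 12.3% of all genes tested, and 3 members (6.82%) rose, against 5.22%. The groups did not overlap, with all 3 Rosiglitazone arrays above all Control arrays, for 8 members, against 25.7% of all genes, and the other way for 17 members, against 38.3% of all genes. Of the tested members, 3 (Dkk2, Rspo2 and Wnt10b) passed the intensity filter although the mean of 1 group lay under it. Dkk2 and Rspo2 passed through their Control values and are among the 5 members with falls of more than 2-fold. The share of falls with larger size therefore rests in part on the filter. How many such genes are among the 4.62% was not counted. In such bulk samples, fewer cells of a type and less RNA per cell cannot be told apart.

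**Figure D1:**
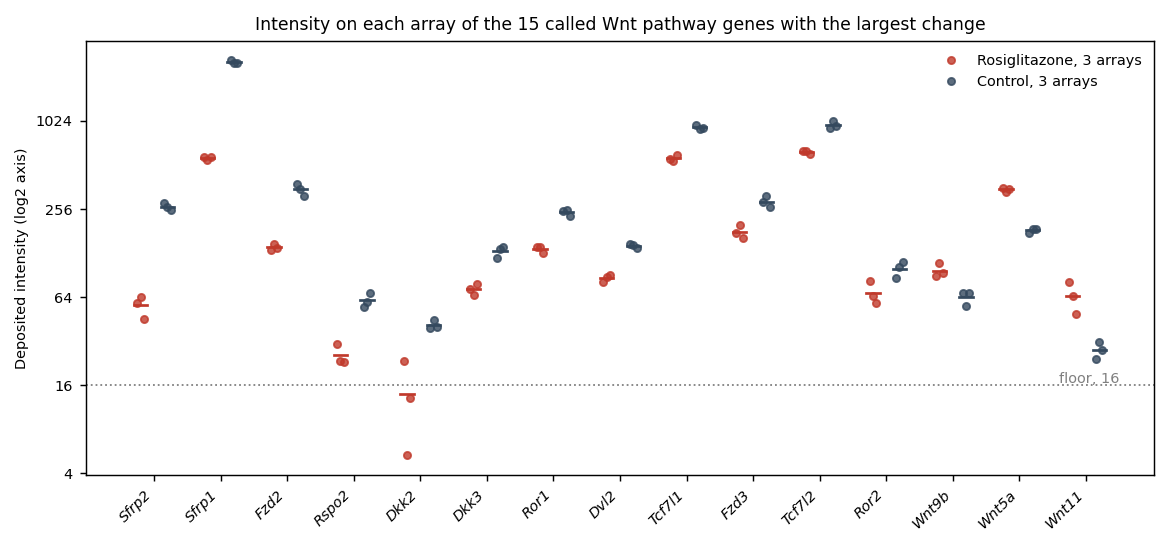
Deposited intensity (log2 axis) of the 15 called Wnt pathway genes with the largest absolute change, on each of 3 Rosiglitazone arrays (left of each pair) and 3 Control arrays (right), with the group mean as a line and the floor of 16 dotted. Genes run from the largest fall at the left, where Sfrp2 averaged 56.2 with rosiglitazone and 266 in Control cells, to the largest rise at the right, where Wnt11 averaged 64.9 with rosiglitazone and 27.7 in Control cells.

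Promoter sequences were read for members whose start sites RefSeq lists on assembly GRCm38.p6. Of the 61 members 41 matched, with 49 windows of 250 bases before a start. The TCF/LEF core motif, searched as CTTTGAA or CTTTGAT on both strands, stood in 3 of the 49 windows (6.12%), those of Wnt11, Dkk1 and Wnt5b, and in 7.48% of 32851 mouse promoters. The other listed windows of Wnt11 and Wnt5b held no core. Among matched members it stood in 1 of 5 called higher, 0 of 9 called lower and 2 of 13 not called. The direct repeat bound by PPARγ, searched as AGGTCANAGGTCA on both strands, stood in 0 of the 49 windows and in 0.0335% of all promoters. A single AGGTCA, which that repeat contains, stood in 2 of the 49 windows (4.08%), those of Dkkl1 and Wnt16, and in 14.0% of all promoters. The member windows were richer in G and C, with medians by call of 64.4% to 68.8%, against 52.4% over all promoters. The part of base composition in these motif shares was not tested. A match is a description of these letters and not a measured site.

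The windows of 4 members are printed in the direction of the gene, 5′ to 3′, with the TCF/LEF core in capitals: those of Wnt11, the ligand with the largest rise, and of Dkk1, a known target of β-catenin that was not called, both with the core, and those of Ror1 and Tcf7l1, a receptor and a TCF factor that fell, without it. They lie at chr7:98834862-98835083 on the plus strand (Wnt11, cut to 222 bases where the gene's annotated span begins), chr19:30549497-30549746 on the minus strand (Dkk1), chr4:100095541-100095790 on the plus strand (Ror1) and chr6:72789046-72789295 on the minus strand (Tcf7l1). Counted to the listed start site at the end of the uncut window, the core lies 44 bases before it in Wnt11, on the other strand as ATCAAAG, and 110 bases before it in Dkk1.
Wnt11: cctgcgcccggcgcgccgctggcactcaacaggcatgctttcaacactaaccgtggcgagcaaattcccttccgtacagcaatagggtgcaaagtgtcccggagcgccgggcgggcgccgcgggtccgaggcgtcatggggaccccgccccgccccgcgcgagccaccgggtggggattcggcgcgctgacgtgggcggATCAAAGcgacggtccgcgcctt
Dkk1: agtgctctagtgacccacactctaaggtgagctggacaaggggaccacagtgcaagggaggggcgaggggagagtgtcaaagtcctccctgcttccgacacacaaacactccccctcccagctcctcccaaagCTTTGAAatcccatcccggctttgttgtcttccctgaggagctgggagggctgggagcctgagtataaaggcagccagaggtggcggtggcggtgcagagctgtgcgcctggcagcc
Ror1: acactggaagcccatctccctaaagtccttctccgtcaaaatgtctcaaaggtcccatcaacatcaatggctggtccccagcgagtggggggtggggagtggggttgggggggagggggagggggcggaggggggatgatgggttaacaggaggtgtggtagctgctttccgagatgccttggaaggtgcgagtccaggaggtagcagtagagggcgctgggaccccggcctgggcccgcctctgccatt
Tcf7l1: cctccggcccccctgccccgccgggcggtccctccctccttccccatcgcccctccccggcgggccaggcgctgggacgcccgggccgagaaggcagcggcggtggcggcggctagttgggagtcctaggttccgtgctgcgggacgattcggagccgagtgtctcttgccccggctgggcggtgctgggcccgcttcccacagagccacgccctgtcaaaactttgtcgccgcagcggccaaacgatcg

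Among the Wnt ligands, 4 of the 11 tested rose, none was called lower (limma; 0 also at an unadjusted p under 0.05) and the median change was 0.28. The share of ligands called was 36.4%, against 59.4% of all genes tested (23.6% higher and 35.8% lower). Wnt11, which acts largely without β-catenin, had intensities of 80.6, 65.2 and 48.7 on the Rosiglitazone arrays, against 24.0, 31.3 and 27.65 on the Control arrays. All treated arrays lay above all Control arrays, although the treated values spread widely. The log2 change was 1.21 (SE 0.20, 95% interval 0.77 to 1.64, adjusted p = 8.6e-05). With a floor of 64, above all Control values of Wnt11, it was 0.12 and was not called (adjusted p = 0.399). Wnt5a, the best known ligand of Ror2, had intensities of 358, 336 and 352 on the Rosiglitazone arrays and 176, 186 and 186 on the Control arrays. These groups lay far apart relative to their spread, at 349 ± 11.6 with rosiglitazone and 183 ± 5.53 in Control cells (mean ± SD, n = 3 each). Its log2 change was 0.93 (SE 0.06, 95% interval 0.80 to 1.06, adjusted p = 1.6e-09).

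Wnt9b, a ligand known from kidney development, had intensities of 88.9, 109 and 92.9 on the Rosiglitazone arrays, against 68.2, 56.0 and 67.8 on the Control arrays. The groups did not overlap, and the log2 change was 0.60 (SE 0.13, adjusted p = 0.00069). A smaller rise was called for Wnt3a, a ligand that acts through β-catenin, which averaged 131 ± 3.36 with rosiglitazone and 108 ± 5.51 in Control cells (log2 change 0.28, SE 0.09, adjusted p = 0.0115).

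The other 7 tested ligands, Wnt10b, Wnt7b, Wnt6, Wnt8b, Wnt4, Wnt9a and Wnt5b, were not called, with log2 changes between −0.29 and 0.55. Wnt10b, whose product is known to block fat cell differentiation, had intensities of 34.0, 40.1 and 25.8 on the Rosiglitazone arrays, against 15.5, 26.4 and 26.6 on the Control arrays. The groups overlapped near the intensity filter, and the interval of the log2 change of 0.55 was −0.03 to 1.13 (adjusted p = 0.0975). Wnt10b was called higher after median centring (0.67), with array weights (0.65) and without Rosiglitazone replicate 3 (0.72). Wnt6, a neighbour of Wnt10a in the genome and likewise known to act against fat cell differentiation, had intensities of 49.1, 66.6 and 58.0 with rosiglitazone and 45.7, 46.5 and 56.6 in Control cells (log2 change 0.22, 95% interval −0.13 to 0.56, adjusted p = 0.266). Wnt7b had a log2 change of 0.28 (adjusted p = 0.273) and was called higher with array weights (0.49) and without Rosiglitazone replicate 1 (0.55).

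A further 8 ligands, Wnt1, Wnt2, Wnt2b, Wnt3, Wnt7a, Wnt8a, Wnt10a and Wnt16, had probe sets too dim to be tested, with means of 7.39 to 25.7. Wnt10a was at 13.2, 13.0 and 17.0 on the Rosiglitazone arrays and at 16.4, 9.35 and 6.96 on the Control arrays, values around the floor that overlap. Porcn, the enzyme that attaches the lipid which Wnt proteins need for secretion, had intensities of 113, 154 and 156 with rosiglitazone and 140.3, 146 and 109 in Control cells, which overlapped (log2 change 0.09, 95% interval −0.18 to 0.37, adjusted p = 0.565).

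Of the R-spondins, agonists that act through Lgr receptors, Rspo2 was the one tested, and it fell. Its intensities were 30.6, 23.5 and 23.0 on the Rosiglitazone arrays, against 54.7, 59.5 and 67.7 on the Control arrays. Every treated value lay below every Control value, and the log2 change was −1.25 (SE 0.19, 95% interval −1.65 to −0.84, adjusted p = 3.1e-05). A second probe set of Rspo2, too dim to be tested, had overlapping values of 22.2, 27.8 and 17.9 with rosiglitazone and 31.0, 21.3 and 25.3 in Control cells. With a floor of 64 the log2 change of Rspo2 was −0.03 and was not called. Rspo1, Rspo3 and Rspo4 had means between 7.43 and 15.1.

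The receptors moved unevenly. Of 12 tested receptors and co-receptors, 1 rose, 6 fell and 5 were not called, with a median change of −0.14. Their share called was 58.3%, near the 59.4% of all genes tested (23.6% higher and 35.8% lower). Fzd2, a frizzled receptor of mesenchymal cells that also binds Wnt5a, fell most, with intensities of 135, 148 and 139.6 on the Rosiglitazone arrays and 382, 351 and 312 on the Control arrays. The treated values lay close together and well below all Control values (log2 change −1.30, SE 0.08, 95% interval −1.47 to −1.13, adjusted p = 4.5e-10).

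Ror1 and Ror2, the receptor tyrosine kinases through which Wnt5a is known to act, both fell. Ror1 had intensities of 141.5, 141 and 128 with rosiglitazone, against 249.7, 251 and 229.9 in Control cells (log2 change −0.83, SE 0.08, adjusted p = 7.3e-08). The other probe sets of Ror1, too dim to be tested, averaged 13.5 and 14.0 with rosiglitazone, against 14.0 and 13.3 in Control cells. Ror2 had intensities of 82.9, 64.7 and 58.0 with rosiglitazone, against 86.7, 103 and 111 in Control cells (log2 change −0.56, SE 0.14, adjusted p = 0.00295). The groups of Ror2 did not overlap, but the highest treated value lay just under the lowest Control value, and without the intensity filter Ror2 was not called (adjusted p = 0.0694).

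Fzd3, a frizzled receptor of planar polarity, had intensities of 177, 199 and 161 on the Rosiglitazone arrays and 285, 312 and 264 on the Control arrays (log2 change −0.68, SE 0.08, adjusted p = 2.9e-06). Its other 3 probe sets that passed the filter had log2 changes of −0.03, 0.10 and 0.36 and were not called, so the fall rests on the brightest probe set. Fzd5 fell to 284.7 ± 16.1 with rosiglitazone, against 399.7 ± 26.0 in Control cells (mean ± SD, n = 3 each; log2 change −0.49, adjusted p = 5.6e-06).

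Fzd4 and Fzd1 differed little between the groups. Fzd4, which also serves as the receptor for the ligand norrin, had intensities of 1923, 1913 and 2102 on the Rosiglitazone arrays and 1909, 1912 and 1924 on the Control arrays. The groups overlapped (log2 change 0.05, 95% interval −0.03 to 0.13, adjusted p = 0.317), and Fzd4 was called higher after quantile normalization (0.11) and median centring (0.17). Fzd1, with 1326, 1350.2 and 1360.0 on the Rosiglitazone arrays against 1189, 1294 and 1274 on the Control arrays, was called higher with a log2 change of 0.10 (95% interval 0.02 to 0.19, adjusted p = 0.0336). That call was lost without Control replicate 1 (0.07, adjusted p = 0.174), without Rosiglitazone replicate 2 (adjusted p = 0.0977) and without Rosiglitazone replicate 3 (adjusted p = 0.0911).

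Fzd7, a frizzled receptor common in stem cells, fell by 0.13 on the log2 scale (adjusted p = 0.030), with means of 487 ± 7.25 with rosiglitazone and 533 ± 17.5 in Control cells. This call was lost after quantile normalization (−0.04) and median centring (−0.01), and when Control replicate 1 (−0.11), Control replicate 2 (−0.12), Rosiglitazone replicate 1 (−0.12), Rosiglitazone replicate 2 (−0.14) or Rosiglitazone replicate 3 (−0.12) was left out. Fzd8 (0.17) and Fzd6 (−0.10) were not called, and Fzd8 was called higher after quantile normalization (0.27) and median centring (0.29). Fzd9 and Fzd10 were too dim to be tested. The antisense RNA Fzd10os had intensities of 68.7, 76.9 and 91.6 with rosiglitazone, against 98.5, 103 and 106 in Control cells. The groups did not overlap, and it was called lower (log2 change −0.39, SE 0.12, adjusted p = 0.0104), a call lost without the intensity filter (adjusted p = 0.0691) and after median centring (−0.26, adjusted p = 0.0698).

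Neither Wnt co-receptor was called. Lrp6 had intensities of 402, 361 and 375 on the Rosiglitazone arrays, against 454, 412 and 396 on the Control arrays. The groups overlapped slightly, and the log2 change was −0.15 (95% interval −0.28 to −0.02, adjusted p = 0.0518). Lrp6 was called lower under 6 of 21 alternatives. Among these were array weights (−0.19, adjusted p = 0.00727), the fit without Control replicate 3 (−0.19) and that without Rosiglitazone replicate 1 (−0.19). A second probe set of Lrp6 had a log2 change of −0.01 and was not called when each probe set was tested by itself (adjusted p = 0.926). Lrp5 had intensities of 35.2, 27.7 and 25.8 with rosiglitazone and 26.0, 40.7 and 19.0 in Control cells, which interleave (log2 change 0.11, 95% interval −0.49 to 0.70, adjusted p = 0.768).

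The 2 largest changes among the members were those of secreted antagonists. Of 7 antagonists tested, 4 fell and none was called higher (limma; 0 also at an unadjusted p under 0.05, while after median centring Dkk1 was called higher), with a median change of −0.86. The share of antagonists called was 57.1%, near the 59.4% of all genes tested (23.6% higher and 35.8% lower). Sfrp2, a Wnt-binding protein made by connective tissue cells, had intensities of 58.7, 64.5 and 45.5 on the Rosiglitazone arrays, against 281, 265 and 251 on the Control arrays. The highest treated value was far below the lowest Control value, and the gene was 4.77-fold lower (log2 change −2.25, SE 0.12, 95% interval −2.50 to −2.01, adjusted p = 6.4e-11). It was the fall ranked 24 in size among 12952 genes tested.

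Sfrp1, which in mice is known to favour fat cell differentiation, fell likewise. Its intensities were 578, 557 and 583 on the Rosiglitazone arrays, against 2655, 2552 and 2546 on the Control arrays. Replicates differed little from each other beside this gap, with 573 ± 14.1 under rosiglitazone and 2584 ± 61.2 in Control cells (mean ± SD, n = 3 each). The log2 change was −2.17 (SE 0.04, 95% interval −2.25 to −2.09, adjusted p = 3.0e-16), a 4.51-fold fall that ranked 28 in size. Sfrp4 was not called (0.15, adjusted p = 0.499). Sfrp5, a Wnt-binding protein known as a hormone of fat tissue, was dim, with no array above the floor, at 13.2, 7.68 and 2.65 with rosiglitazone and 11.7, 10.4 and 12.1 in Control cells.

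Of the 4 dickkopf genes, Dkk2 and Dkk3 fell and Dkk1 and Dkk4 were not called. Dkk3, the family member that does not bind Lrp5 or Lrp6 in the usual way, had intensities of 72.5, 66.3 and 78.75 on the Rosiglitazone arrays, against 118, 137 and 140.6 on the Control arrays (log2 change −0.86, SE 0.11, adjusted p = 4.2e-06). Dkk2, an Lrp6 ligand, had 23.3, 5.31 and 13.0 with rosiglitazone, against 39.3, 44.3 and 39.8 in Control cells. As 2 of the treated values lay under the floor, its log2 change of −1.18 (SE 0.24, adjusted p = 0.00052) depends on that floor. Its mean of 27.5 over all arrays also stood just above the filter at 27.3, and it was not tested when any 1 Control array was left out.

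Dkk1, which blocks Lrp5 and Lrp6 and is itself a known target of β-catenin, had intensities of 82.8, 89.5 and 74.9 with rosiglitazone and 71.3, 80.6 and 66.5 in Control cells. These overlapped (log2 change 0.18, 95% interval −0.08 to 0.44, adjusted p = 0.23), and Dkk1 was called higher after median centring (0.30). Wif1, which binds Wnt proteins in the extracellular space, stayed under the floor on all arrays, at 6.59, 12.0 and 8.48 with rosiglitazone and 8.94, 11.5 and 7.79 in Control cells. Dkkl1, a dickkopf-like gene known from the testis, lay between 1.00 and 2.09.

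**Figure D2:**
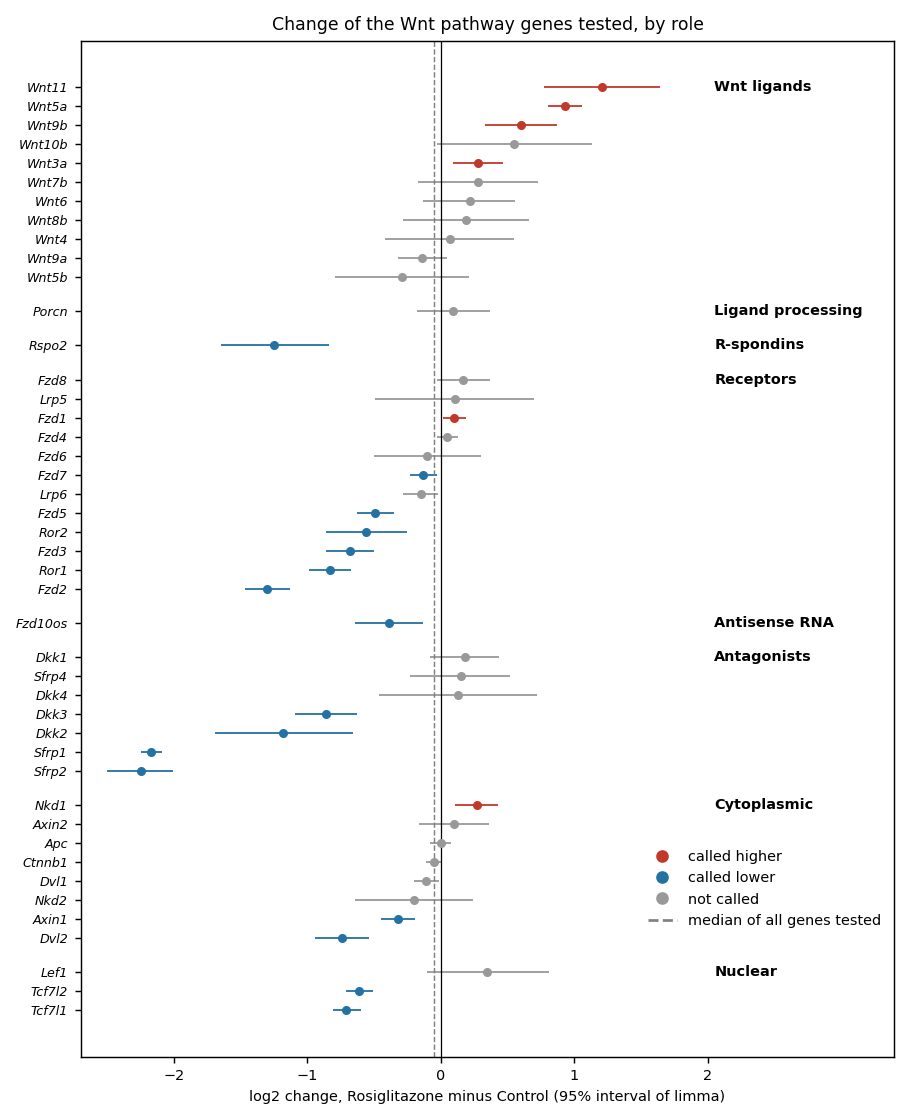
Log2 change (Rosiglitazone minus Control) of the 44 tested Wnt pathway genes, grouped by role, with the 95% interval of limma as a bar, colour for the call and a dashed line at the median of all genes tested (−0.05). The called ligands lie on the right of 0, and the antagonists Sfrp1 and Sfrp2 are farthest to the left at −2.17 and −2.25.

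Inside the cell, 8 cytoplasmic members were tested, of which 1 rose, 2 fell and 5 were not called. That is 37.5% called, against 59.4% of all genes tested (23.6% higher and 35.8% lower). Dvl2, a dishevelled scaffold that frizzled receptors recruit, had intensities of 80.8, 87.5 and 90.8 on the Rosiglitazone arrays, against 148, 145 and 139 on the Control arrays. The groups were clearly separated (log2 change −0.74, SE 0.09, 95% interval −0.94 to −0.54, adjusted p = 3.4e-06). A second probe set of Dvl2 was too dim to be tested. Its values overlapped, at 23.2, 29.0 and 25.5 with rosiglitazone and 25.1, 26.3 and 33.4 in Control cells. Dvl1 had a log2 change of −0.11 (adjusted p = 0.0518) and was called lower without Control replicate 2 (−0.16). Dvl3 was too dim to be tested.

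Axin1, a scaffold of the complex that destroys β-catenin, fell to 243.6 ± 6.08 with rosiglitazone, against 304 ± 8.54 in Control cells (mean ± SD, n = 3 each; log2 change −0.32, adjusted p = 0.00021). A second probe set of Axin1 had a log2 change of −0.14 and was not called when each probe set was tested by itself (adjusted p = 0.237). Apc, a second scaffold of that complex, had a log2 change of 0.00 (95% interval −0.08 to 0.08, adjusted p = 0.979) and was called higher after median centring (0.12). Nkd1, an inhibitor that binds dishevelled, rose to 268 ± 22.5 with rosiglitazone, against 221 ± 13.8 in Control cells (mean ± SD, n = 3 each; log2 change 0.27, adjusted p = 0.00482). That call was lost with the mean of its probe sets (0.19, adjusted p = 0.114) and without the intensity filter (adjusted p = 0.058). Nkd2 was not called (−0.20, adjusted p = 0.437).

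Axin2, the most widely used readout of β-catenin signalling, had intensities of 93.0, 78.55 and 73.9 on the Rosiglitazone arrays and 78.0, 78.0 and 72.1 on the Control arrays. The groups overlapped and the log2 change was 0.10 (95% interval −0.16 to 0.36, adjusted p = 0.506). Ctnnb1, the transcript of β-catenin, had intensities of 6653, 6938 and 6945 with rosiglitazone, against 7116, 7006 and 7188 in Control cells. The treated values were all slightly below the Control values (log2 change −0.05, 95% interval −0.11 to 0.00, adjusted p = 0.0826), and the direction depended on the scaling, with a called −0.14 after quantile normalization and 0.07 after median centring.

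Among the nuclear factors, which bind DNA with β-catenin or repress in its absence, Tcf7l1 and Tcf7l2 fell and Lef1 was not called. Tcf7l1, known mainly as a repressor, had intensities of 559, 543 and 603 on the Rosiglitazone arrays, against 959.6, 904 and 917 on the Control arrays (log2 change −0.71, SE 0.05, 95% interval −0.81 to −0.60, adjusted p = 2.4e-09). Tcf7l2 had 636, 638 and 608.5 with rosiglitazone, against 919, 1016 and 944 in Control cells (log2 change −0.61, SE 0.05, 95% interval −0.71 to −0.51, adjusted p = 9.4e-09). For both, the groups were separated by several times their spread. Lef1, itself a target of β-catenin in many tissues, had dim values of 30.25, 37.3 and 38.1 with rosiglitazone and 28.8, 29.4 and 24.3 in Control cells. These did not overlap but the interval of the log2 change of 0.35 included 0 (−0.10 to 0.81, adjusted p = 0.171). Lef1 was called higher when eBayes was run without a variance trend (0.35).

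Of the tested members 17 had more than 1 probe set that passed the filter. The probe sets agreed in direction for 14 of them, and for 6 (Sfrp1, Fzd2, Dkk3, Tcf7l1, Tcf7l2 and Wnt9b) every such probe set was called the same way when each was tested by itself. The 5 probe sets of Sfrp1 had log2 changes between −2.56 and −0.61, and the 3 of Fzd2 between −1.44 and −1.20. Wnt5a had changes of 0.93, 0.90 and 0.77 in 3 called probe sets and 0.05 in the fourth (adjusted p = 0.855). That probe set of Wnt5a had intensities of 39.4, 36.8 and 53.9 with rosiglitazone and 45.1, 37.0 and 42.6 in Control cells. For Apc, Fzd3 and Fzd8 the probe sets differed in sign.

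**Figure D3:**
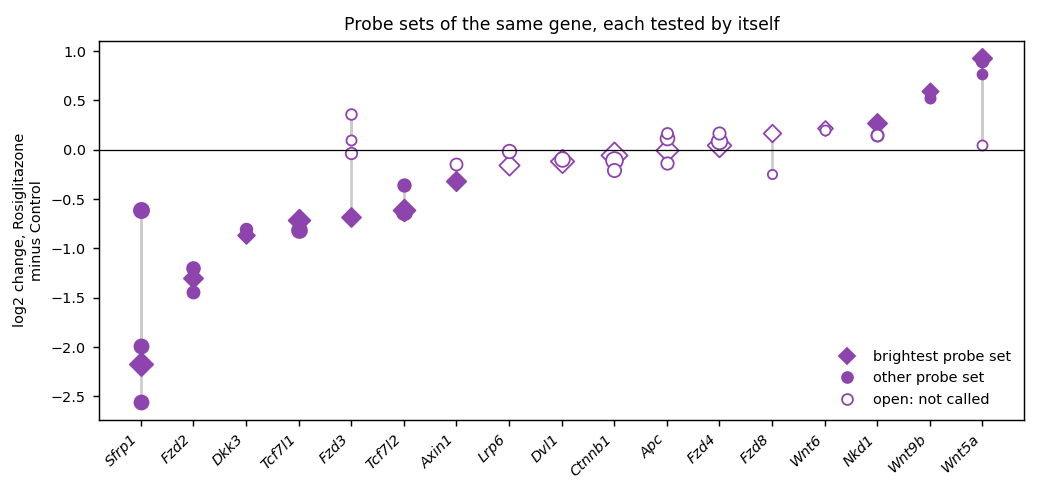
Log2 change (Rosiglitazone minus Control) of each kept probe set of the 17 tested Wnt pathway genes with more than 1, with the brightest as a diamond, the others as circles, a larger symbol for a brighter probe set, and open symbols for those not called when each probe set was tested by itself. All 5 probe sets of Sfrp1 lie below 0, while those of Fzd3 run from −0.68 to 0.36.

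Genes that work with these members were read from a separate list of Wnt pathway genes. Of 75 on the array 65 were tested and 64.6% were called, 10 of the 65 higher and 32 lower. Among all genes tested 59.4% were called, 23.6% higher and 35.8% lower. The median change was −0.15 (−0.05 over all genes tested). The falls included membrane inhibitors of Wnt signalling. Apcdd1, which binds Wnt and Lrp5, had intensities of 768, 709 and 749 on the Rosiglitazone arrays, against 2146, 2053 and 2238 on the Control arrays (log2 change −1.53, SE 0.04, adjusted p = 4.6e-14). Tpbg, a membrane glycoprotein that restrains β-catenin signalling in zebrafish, had 188, 182 and 218.5 with rosiglitazone, against 443, 452 and 407 in Control cells (log2 change −1.15, adjusted p = 9.2e-10). In both genes the groups stood far apart.

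Dact1, a partner of dishevelled, had intensities of 129, 124 and 129 with rosiglitazone, against 296, 288 and 320.0 in Control cells (log2 change −1.24, adjusted p = 2.4e-10). The planar polarity genes Prickle1 (−1.16, adjusted p = 6.4e-08) and Prickle2 (−0.81, adjusted p = 7.0e-05) fell, as did Cthrc1, a secreted protein that stabilises Wnt and frizzled complexes (−1.06, adjusted p = 1.5e-07). Chosen after their values were seen, Wls, the carrier of Wnt proteins to the cell surface, fell by 0.35 on the log2 scale (adjusted p = 2.8e-07), and Lgr4, an R-spondin receptor, fell by 0.21 (adjusted p = 0.00045). Tspan12, a partner of Fzd4, rose by 0.59 (adjusted p = 4.8e-11) and was likewise chosen after its values were seen.

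A list of genes known, mostly from other tissues, as targets of β-catenin was read in the same way. Of 43 on the array 34 were tested and 76.5% were called, with a median change of −0.46. Of the 34, 4 were called higher (Nkd1, Id2, Nrcam and Met) and 22 lower. Among all genes tested 59.4% were called, 23.6% higher and 35.8% lower, with a median change of −0.05. The list shares the tested genes Axin2, Lef1, Nkd1 and Dkk1 with the members, and the 8 not called were Axin2, Lef1, Dkk1, Lgr5, Znrf3, Fgf9, Bmp4 and Vegfa. Of these, Lgr5 (0.19, adjusted p = 0.443) and Znrf3 (0.10, adjusted p = 0.188), a receptor and a ubiquitin ligase of the R-spondin pathway, are commonly read together with Axin2. Both were chosen after their values were seen. Elsewhere on the list Nkd1 was called higher (0.27) and Apcdd1 lower (−1.53), while Rnf43, Notum and Sp5 were too dim to be tested.

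Sox9, a factor of cartilage and progenitor cells, fell, with intensities of 20.8, 18.4 and 21.1 on the Rosiglitazone arrays, against 82.9, 78.9 and 71.85 on the Control arrays (log2 change −1.95, adjusted p = 7.5e-08). Sox9 passed the filter through its Control values alone, and with a floor of 64 its change was −0.28. Ccn2, a secreted matrix protein, had 723, 697 and 795 with rosiglitazone, against 2671, 2799 and 2825 in Control cells (log2 change −1.91, adjusted p = 9.6e-15). Ccnd1, the G1 cyclin, had 362, 375 and 357 with rosiglitazone, against 1024, 1015 and 1071 in Control cells (log2 change −1.51, adjusted p = 1.2e-13). In all 3 the groups were far apart. Ccn4 (−1.43, adjusted p = 2.1e-09) and Ptgs2 (−1.42, adjusted p = 5.5e-05) also fell, the second with 2 treated arrays under the floor and a treated mean under the filter.

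Markers of other cell types moved in the same arrays, where 23.6% of all genes tested were called higher and 35.8% lower. Of 9 tested preadipocyte or fibroblast markers 8 fell (median change −0.99), and their summed intensity, all 10 on the array included, was 20089 to 20474 on the Rosiglitazone arrays and 33350 to 33594 on the Control arrays, with Dpp4 under the floor. Of 7 smooth muscle or pericyte markers 4 fell and 2 rose, with sums of 4792 to 4906 under rosiglitazone and 8097 to 8555 in Control cells. All 10 macrophage markers fell, with sums of 4123 to 4496 under rosiglitazone and 12217 to 13366 in Control cells. Of 7 fat cell markers 2 rose and 2 fell, with sums of 72202 to 73402 under rosiglitazone and 70714 to 71830 in Control cells. The part of these shifts in the falls of Sfrp1, Sfrp2, Fzd2, Ror1 and the other members was not tested.

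Of the markers of 4 further cell types, most did not pass the filter. Tek (−1.15) and Flt1 (−1.57), the endothelial markers tested, fell, while Pecam1, Cdh5, Kdr and Vwf did not pass the filter, with sums over 6 markers of 176 to 196 under rosiglitazone and 402 to 410 in Control cells. The epithelial sums were 176 to 189 under rosiglitazone and 178 to 198 in Control cells, with Epcam, Krt18 and Cdh1 too dim to be tested. The mesothelial sums were 110 to 138 under rosiglitazone and 89 to 103 in Control cells, with Upk3b and Wt1 too dim to be tested. Of the mesothelial markers tested, Lrrn4 was called higher (0.56, adjusted p = 0.00642) and Msln was not called (−0.20). The lymphocyte sums were 169 to 184 under rosiglitazone and 329 to 341 in Control cells, with Cd3e, Cd3d and Cd79a too dim to be tested, and Ptprc, which macrophages also carry, fell (−1.17).

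**Figure D4:**
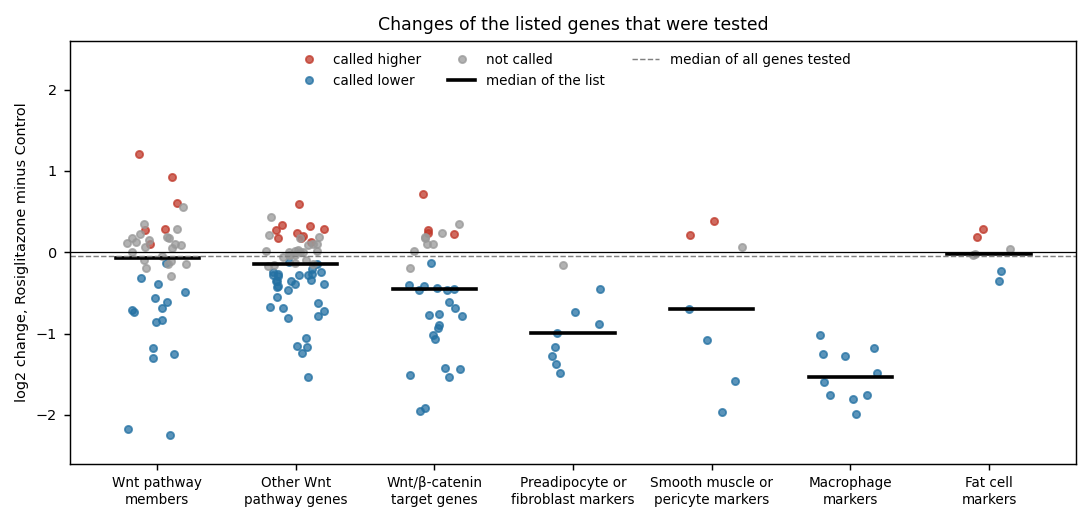
Log2 change (Rosiglitazone minus Control) of the tested genes of the Wnt pathway members, the 2 other Wnt lists and 4 cell type marker lists, coloured by call, with the list's median as a thick line and the median of all genes tested dashed. The members' median (−0.07) lies near that of all genes (−0.05), that of the target list at −0.46, and those of the preadipocyte or fibroblast and macrophage markers at −0.99 and −1.53.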

How the data were processed

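Expression was measured on 6 Affymetrix mouse arrays. Per the labels' protocols, RNA was extracted with TRIzol and silica columns and biotinylated cRNA was prepared. The deposited values are the authors' probe set intensity on a linear scale; the program that made and scaled them is not stated in the sources used here. Groups follow the sample titles and the treatment label, because the protocol text names the drug for all 6 samples.

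From these deposited intensities, values under 16 were set to 16 and log2 was taken. Probe sets with a mean at or under 27.3 (the lowest 40%) were dropped together with 64 controls, which kept 27022. Names came from the platform annotation: 34945 probe sets had 1 symbol, 932 several and 9160 were not listed. The brightest kept probe set with 1 symbol stands for a gene. The comparison used limma 3.58.1 (R 4.3.3) with lmFit and a trended eBayes, without covariates and two-sided, and p-values were adjusted by Benjamini-Hochberg over 12952 genes. The code was tested on simulated data. With 3 arrays a group, an exact two-sided permutation p cannot go below 0.1.

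The members and lists were chosen with earlier results of these data known. Named with every value are the 15 called members with the largest change, the brightest member of each role, and well-known Wnt genes of fat whatever their values; of each other Wnt list, up to 6 called genes with the largest change are named. Alternatives were other filters, scalings, floors, probe set rules, variance models, thresholds, array weights, each array left out and the replicate number as a block.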

Additional observations from a re-analysis of the deposited data

How the results depend on the processing

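Of the 22 called members, 4 (Sfrp1, Sfrp2, Fzd2 and Ror1) stayed called under every alternative run. Sfrp2 and Ror1 had no second probe set that passed the filter, so the probe set rules gave no check of them. Against a 1.5-fold change (limma's treat) 2 members were called higher and 5 lower, other Wnt pathway genes 0 higher and 6 lower, target genes 0 higher and 11 lower, and all genes 325 higher and 895 lower; at an unadjusted p under 0.05 treat also gave 0 and 0 higher on those lists. Median centring called 11 members and 22 other pathway genes higher, and quantile normalization called 16 other pathway genes higher. Centring moved the median of all genes to 0.07 (0.02 after quantile normalization) and split all calls 4558 higher against 3285 lower, while quantile normalization gave 3945 against 3776, beside 3057 against 4635. Testing each probe set by itself called 6 other pathway genes and 1 target gene higher, and the mean of probe sets 2 target genes. The members' median was 0.00 without a filter and with a floor of 64, −0.05 and −0.15 with the lowest 20% and 60% left out, −0.04 after quantile normalization and 0.05 after median centring. With each array left out in turn it ran from −0.12 to −0.04, members called higher from 5 to 7 and lower from 14 to 16, all genes higher from 2711 to 2965 and lower from 4264 to 4522, other pathway genes higher from 10 to 12 and lower from 30 to 33, and target genes higher from 4 to 5 and lower from 21 to 22. Among the members given with every value, signs turned for Ctnnb1 after median centring (0.07), Fzd3 as the median of its probe sets (0.04), Lrp5 with array weights (−0.07), without Control replicate 3 (−0.15) and without Rosiglitazone replicate 1 (−0.02), and Porcn without Control replicate 3 (−0.04). With each array left out, Lrp5 ran from −0.15 to 0.20 and Porcn from −0.04 to 0.25; the cause was not tested. Fzd6, Dkk4, Wnt4, Fzd8, Dvl1 and Apc, members not called in the report, also took both signs over the alternatives, within −0.31 and 0.36. Same-numbered samples did not deviate together (correlations −0.021, −0.024 and 0.06), and 1 of 3 matched its own number best. With 3 arrays a group this cannot show whether same-numbered samples were handled together. With the replicate number as a block, all 22 members stayed called and 2 more, Dvl1 and Lrp6, were called lower. With 60% of probe sets left out fewer genes were tested, and 17 of the 22 kept their call. Dim probe sets limit the rest: 17 members gave no test.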

Other observations

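The 17 members too dim to be tested lay between 1.00 and 33.5 on every array, and 8 of them exceeded the floor on none of the 6 arrays. Their groups overlapped except in 3. The share without overlap among all genes too dim to be tested was not counted, so whether 3 is many cannot be told. Wnt2, a ligand that acts through β-catenin, was at 11.6, 15.7 and 9.56 on the Rosiglitazone arrays and at 30.2, 20.6 and 17.7 on the Control arrays. Rspo3, an R-spondin, was at 11.6, 5.88 and 6.78 with rosiglitazone and at 14.9, 13.1 and 15.8 in Control cells. Fzd10, a frizzled receptor, was at 9.44, 10.8 and 14.4 with rosiglitazone and at 3.64, 6.45 and 6.01 in Control cells. The values of Rspo3 and Fzd10 all lie under the floor of 16, where they have no order.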
